A study of Mus musculus with 15 samples.

Results

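Klf2, Klf4, Klf5, Tbx3 and Prdm14 are genes of naive pluripotency factors, and the chromatin around them was described in mouse embryonic stem cells (ESCs) and in 2 kinds of expanded potential stem cells (EPSCs). These 5 genes of 22350 protein-coding genes were chosen by name, by a rule that uses no measured value, though earlier results of these data were known when they were proposed. Each gene was given a window, its span in the GENCODE M1 annotation (genome build mm9) widened by 60 kb on each side. Peaks and the bases under them were counted in each window.

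The study profiled H3K27ac, an acetylation of histone H3 found at active enhancers and promoters, and H3K4me1, a methylation found at enhancers and beside promoters, by chromatin immunoprecipitation and sequencing (ChIP-seq). Of 15 samples, each state had 2 for either mark and 1 of input. Only 1 peak list per state and mark was analysed here, so differences have no replicate check and no test between samples was possible. A peak list says where a mark was called and how widely, not how strong it was, and a mark in fewer cells cannot be told apart from less of it in each cell. Read depth, which can change how much is called, is unknown from peak positions.

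The ESCs were the J1 line of strain 129SV, cultured on inactivated mouse embryonic fibroblasts or on gelatin in a serum-based medium with LIF at 1000 units/mL, 3 µM CHIR99021 and 1 µM PD0325901. CHIR99021 blocks GSK3 and PD0325901 blocks MEK. The D-EPSCs were kept in N2B27 with serum replacement, LIF at 1000 units/mL, 3 µM CHIR99021, 2 µM dimethindene maleate and 2 µM minocycline hydrochloride, and without PD0325901. The L-EPSCs were kept with serum replacement, LIF at 1000 units/mL, 3 µM CHIR99021, 1 µM PD0325901, 0.3 µM A-419259, 5 µM XAV939, 4 µM JNK inhibitor VIII and 10 µM SB203580. All 3 states therefore shared LIF and CHIR99021, and ESCs and L-EPSCs shared PD0325901. Both EPSC states were made by switching the medium of ESCs, so base medium and added compounds changed together and their effects cannot be told apart. Per the study's methods, both EPSC states were grown without feeder cells before ChIP-seq. Whether the ESCs used for ChIP-seq had grown on feeder cells is not given in the sources used here. Feeder cells may therefore be a further difference between ESCs and EPSCs.

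Naive pluripotency is the state of the epiblast before implantation, which ESCs hold in culture under LIF and inhibitors of GSK3 and MEK. Klf2, Klf4 and Klf5 are zinc finger factors that bind GC-rich sites and together sustain self-renewal. Tbx3, a T-box factor, acts downstream of Wnt and PI3K signalling, and Prdm14, a PR domain factor, represses FGF signalling and DNA methyltransferases and is needed for germ cell formation. Genes of this kind are often flanked by long stretches of acetylated enhancers in ESCs.

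The labelled cell type was checked at 8 genes of pluripotent cells (Pou5f1, Sox2, Nanog, Sall4, Lin28a, Utf1, Zfp42 and Tdgf1) and 9 of fibroblasts, the feeder cell type (Col1a1, Col1a2, Col3a1, Thy1, Postn, Dcn, Lum, Twist2 and Acta2). An H3K27ac peak lay within 1 kb of the start of 8 of 8 pluripotent genes in ESCs and in D-EPSCs, and of 7 of 8 in L-EPSCs, all but Lin28a. It lay at 0 of 9 fibroblast genes in every state. H3K4me1 was less selective, with a peak there at 4 of 8 pluripotent genes in ESCs and 8 of 8 in both EPSC states, and at 4 of 9 fibroblast genes (Col1a1, Col1a2, Thy1 and Twist2) in every state. The H3K27ac lists differed in length, with 64342 peaks covering 107.4 Mb in ESCs, 32782 covering 44.41 Mb in D-EPSCs and 26966 covering 34.29 Mb in L-EPSCs. The H3K4me1 lists covered 221.1, 187.5 and 173.1 Mb. A lower number of H3K27ac bases in an EPSC state was thus the rule over the whole genome, and the counts and ratios of the gene windows are given beside those of all windows.

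The 5 windows lie on different chromosomes and do not overlap. Klf2 lies at chr8:74842932-74845555 on the plus strand, and its window of 122.6 kb also meets Gm10282 and Eps15l1. Klf4, at chr4:55540013-55545347 on the minus strand, and Tbx3, at chr5:120120678-120134733 on the plus strand, had windows of 125.3 and 134.1 kb with no other protein-coding gene. The window of Klf5, at chr14:99697910-99712624 on the plus strand, spans 134.7 kb and reaches into Pibf1. That of Prdm14, at chr1:13103538-13117244 on the minus strand, spans 133.7 kb and reaches into Ncoa2. A start site of another protein-coding gene lay in the Klf2 window alone.

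The sequences below are from mm9, 5′ to 3′, and come from promoters and distal stretches of these genes. Capitals mark a match to 1 of 5 motifs searched on both strands: GGGNGTGG of Klf and Sp factors, the octamer ATTTGCAT, CAAGGTCA of Esrrb and Nr5a2, TTCCNGGAA of STAT factors and ATCAAAG of Tcf and Lef factors. No matches overlapped in the sequences printed. The first 3 are the 200 bases before the first base of Klf2 (chr8:74842732-74842931, plus strand), of Tbx3 (chr5:120120478-120120677, plus strand) and of Prdm14 (chr1:13117245-13117444, minus strand). They are shown because the first base of Klf2 was acetylated in all 3 states and those of Tbx3 and Prdm14 were not. The printed Tbx3 bases were not free of H3K27ac in EPSCs. Peaks over them ended at chr5:120120652 in D-EPSCs and at chr5:120120662 in L-EPSCs, short of the first base. The printed Prdm14 bases lay under an L-EPSC peak (chr1:13116491-13117703) and met none in D-EPSCs.
Klf2 promoter: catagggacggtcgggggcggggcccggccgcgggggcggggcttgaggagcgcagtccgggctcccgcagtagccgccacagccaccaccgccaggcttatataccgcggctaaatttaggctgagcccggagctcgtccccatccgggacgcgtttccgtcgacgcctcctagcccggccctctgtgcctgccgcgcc
Tbx3 promoter: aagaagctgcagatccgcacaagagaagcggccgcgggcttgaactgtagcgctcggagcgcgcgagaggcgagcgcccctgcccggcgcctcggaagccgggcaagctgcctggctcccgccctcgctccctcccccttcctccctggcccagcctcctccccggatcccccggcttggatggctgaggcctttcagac
Prdm14 promoter: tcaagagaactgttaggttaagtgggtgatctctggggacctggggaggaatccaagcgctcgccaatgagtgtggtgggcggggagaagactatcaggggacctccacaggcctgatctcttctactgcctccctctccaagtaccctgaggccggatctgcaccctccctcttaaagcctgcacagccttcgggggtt

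Klf2 and Tbx3 begin behind GC-rich sequence and Prdm14 behind a less GC-rich one. The GC content of these 200 bases was 72.5% for Klf2, 71.0% for Klf4, 69.0% for Klf5, 71.0% for Tbx3 and 58.0% for Prdm14, against a median of 55.5% over all protein-coding genes. None of the 5 motifs was found in these letters before any of the 5 genes. Other forms of these sites, such as GC-rich ones without GGGNGTGG, were not searched, so their absence is not shown. Over all genes, 15.1% held GGGNGTGG in the same window, 2.35% ATCAAAG, 1.36% ATTTGCAT, 0.864% CAAGGTCA and 0.765% TTCCNGGAA.

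Distal sequences are the middle 200 bases of the widest exon-free stretch of a kind in a window, all written on the plus strand. The first is from the widest distal acetylated stretch of Tbx3 in ESCs (chr5:120154905-120155104), 30.9 to 37.8 kb past the start and outside protein-coding genes. Its printed bases, to which the label refers, carried H3K27ac in ESCs only and H3K4me1 in all 3 states. Elsewhere in the stretch H3K27ac covered 0.339 kb in D- and 0.552 kb in L-EPSCs. The second is from the widest distal stretch of Tbx3 acetylated in all 3 states (chr5:120160665-120160864), also outside protein-coding genes. The third is the same for Klf4 (chr4:55489248-55489447). The printed bases of the second and the third were under H3K27ac in every state. Those of the second were under H3K4me1 in both EPSC states but not in ESCs, and those of the third in all 3 states.
Tbx3 distal, acetylated in ESCs only: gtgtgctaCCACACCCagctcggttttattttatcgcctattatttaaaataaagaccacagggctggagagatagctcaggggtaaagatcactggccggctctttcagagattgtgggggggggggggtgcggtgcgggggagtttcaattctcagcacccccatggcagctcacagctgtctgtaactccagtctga
Tbx3 distal, acetylated in all states: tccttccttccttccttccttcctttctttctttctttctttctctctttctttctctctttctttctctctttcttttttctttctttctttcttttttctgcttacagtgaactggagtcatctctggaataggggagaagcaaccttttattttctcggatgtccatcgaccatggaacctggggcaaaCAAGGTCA
Klf4 distal, acetylated in all states: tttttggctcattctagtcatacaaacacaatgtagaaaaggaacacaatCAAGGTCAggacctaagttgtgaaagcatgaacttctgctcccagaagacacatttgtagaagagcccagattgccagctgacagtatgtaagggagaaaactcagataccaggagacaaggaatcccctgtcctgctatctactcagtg

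Both Tbx3 sequences held 1 match, on the minus strand to GGGNGTGG in the first and on the plus strand to CAAGGTCA in the second. The Klf4 sequence held 1 match to CAAGGTCA on the plus strand. Among the middles of 54421 distal ESC H3K27ac peaks, 8.20% held GGGNGTGG, 2.36% CAAGGTCA, 3.07% ATCAAAG, 1.11% ATTTGCAT and 0.785% TTCCNGGAA. A match describes letters and is not a binding site.

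H3K27ac was compared first, to ask how much acetylated chromatin each gene had in ESCs and in the EPSC states. All 5 windows were covered less in both EPSC states than in ESCs, as were 88.4% of all tested windows in D- and 95.5% in L-EPSCs. Tbx3 stood apart: it was the second most acetylated of the 5 in ESCs and the least in D-EPSCs.

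Klf2 had the most acetylated window in every state. H3K27ac peaks covered 95.8 kb of it in ESCs, 66.8 kb in D- and 49.5 kb in L-EPSCs. Of all protein-coding windows, 99.7%, 99.9% and 99.8% had less in these states. The covered bases were in 12, 18 and 24 peaks, so EPSC acetylation was narrower and more broken up. The ESC peak over the Klf2 start was 40.3 kb wide, and those of D-EPSCs and L-EPSCs over the start were 8.42 and 7.21 kb wide.

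Klf4, which LIF signalling through Stat3 induces, had the least acetylation of the 5 in ESCs. Its window held 32.2 kb in ESCs, 15.4 kb in D- and 17.3 kb in L-EPSCs, in 13, 7 and 5 peaks. D-EPSCs and L-EPSCs were close to each other here.

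Klf5, which the early embryo also uses in the trophectoderm, held 68.1 kb in ESCs, 28.6 kb in D- and 21.1 kb in L-EPSCs, in 23, 12 and 13 peaks. Prdm14 held 60.6, 24.6 and 13.4 kb, in 18, 15 and 9 peaks. Both were ordered ESC, D-EPSC, L-EPSC, as were the list totals.

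Tbx3 broke that order, as Klf4 did by a smaller amount. Of all windows tested between the EPSC states, 77.7% had less in L- than in D-EPSCs. The Tbx3 window held 80.5 kb in ESCs in 32 peaks, 6.01 kb in D-EPSCs in 5 peaks and 27.4 kb in L-EPSCs in 17 peaks. The D-EPSC value was 13.4-fold lower than the ESC value and 4.55-fold lower than the L-EPSC value. In ESCs 99.2% of all windows had fewer acetylated bases than Tbx3, in L-EPSCs 98.6% and in D-EPSCs 70.2%.

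The order of the genes also differed by state. It was Klf2, Tbx3, Klf5, Prdm14, Klf4 in ESCs, Klf2, Klf5, Prdm14, Klf4, Tbx3 in D-EPSCs and Klf2, Tbx3, Klf5, Klf4, Prdm14 in L-EPSCs. With 1 list per state, no spread tells which neighbours in these orders differ.

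**Figure D1:**
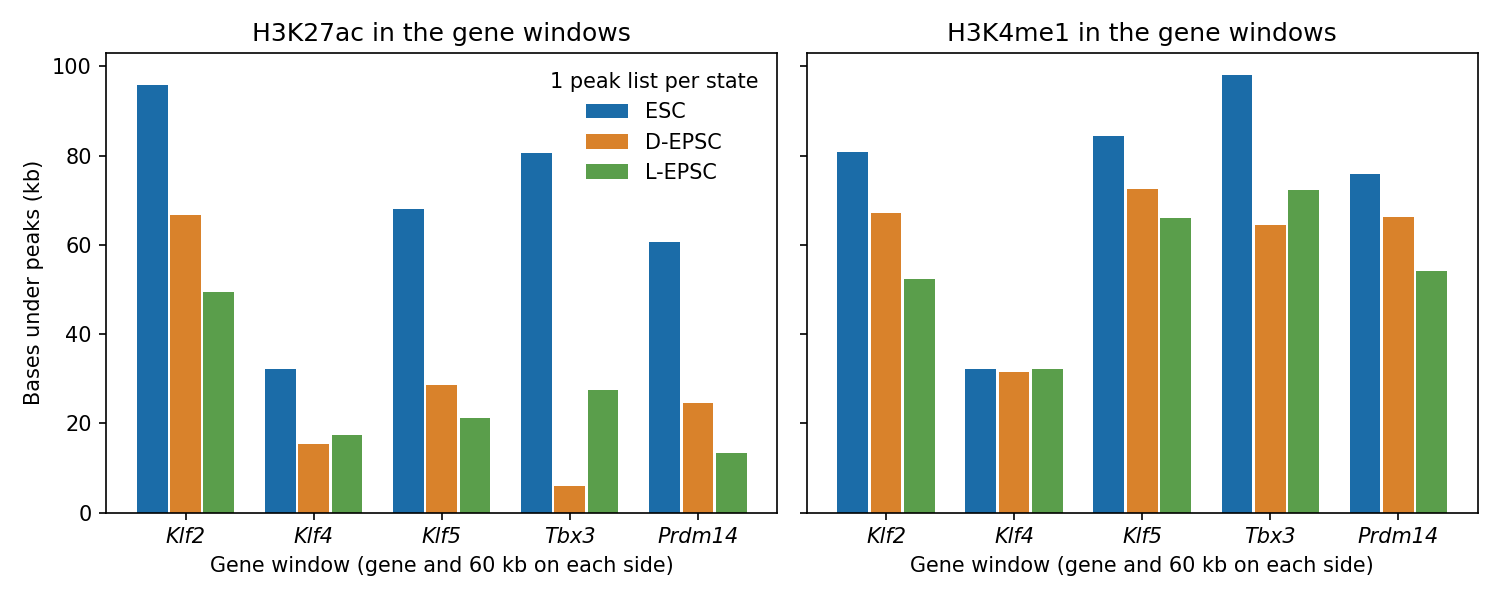
Bars give the kb under H3K27ac peaks (left) and H3K4me1 peaks (right) in the window of each gene, from 1 peak list per state, so there are no error bars. For H3K27ac the Tbx3 bar is 80.5 kb in ESCs, 6.01 kb in D- and 27.4 kb in L-EPSCs, while the H3K4me1 bars of a gene lie closer together.

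Ratios were then set beside those of all windows. A window was tested when either list covered at least 1000 bases of it and called when the lists differed by at least 2-fold. The 3 comparisons share lists with each other, and windows of neighbouring genes overlap, so neither comparisons nor windows are independent.

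Of the 5 windows, 4 were past 2-fold lower in D-EPSCs than in ESCs, all but Klf2, where 62.6% of 16602 tested windows were. None was past 2-fold higher, against 4.41% of all windows. The log2 ratio of D-EPSCs over ESCs was -0.52 for Klf2, -1.07 for Klf4, -1.25 for Klf5, -1.30 for Prdm14 and -3.74 for Tbx3. The median of the 5 was -1.25 and that of all tested windows -1.31, so the count and the middle of the group were near the background.

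Tbx3 was far from that middle. Of all tested windows, 860 (5.18%) had a lower ratio than Tbx3, and 586 of these windows had no D-EPSC acetylation at all. Among the 1019 windows with at least 50 kb of H3K27ac in ESCs, a limit chosen after its value was seen, 9 (0.883%) were at or below Tbx3, itself included. The other 8 were Tns1, Ly75, Fndc3b, Il6ra, Epb4.1l4b, Cldn27, Ankrd33 and Crtac1. By contrast, 96.1% of these 1019 windows were at or below Klf2, 65.5% at or below Klf5 and 62.3% at or below Prdm14.

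In L-EPSCs against ESCs, 3 of the 5 windows were past 2-fold lower (Klf5, Tbx3 and Prdm14), where 81.1% of 16208 tested windows were, and 0 were higher, against 1.69%. The log2 ratio was -0.95 for Klf2, -0.90 for Klf4, -1.69 for Klf5, -1.56 for Tbx3 and -2.18 for Prdm14. Their median was -1.56, beside -1.91 over all windows. Klf2 and Klf4 lay above 82.5% and 83.7% of all windows, and Prdm14 above 40.5%.

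Between the EPSC states, Tbx3 alone passed 2-fold, higher in L-EPSCs, where 4.32% of 15168 tested windows were. None of the 5 was past 2-fold lower, against 30.9%. The log2 ratio of L-EPSCs over D-EPSCs was 2.19 for Tbx3, above 98.6% of all windows. It was 0.17 for Klf4, -0.43 for Klf2, -0.44 for Klf5 and -0.88 for Prdm14, and the median of all windows was -0.56.

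**Figure D2:**
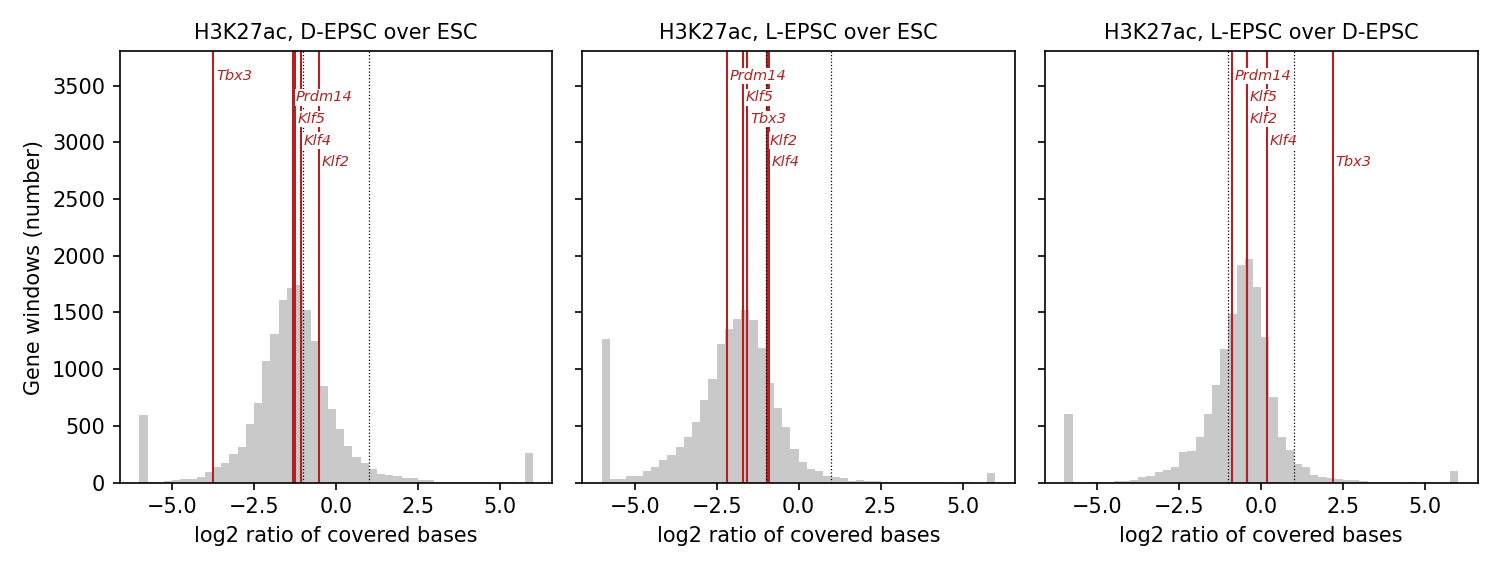
Grey bars count tested gene windows by the log2 ratio of H3K27ac covered bases in each comparison, with windows at 0 in a list or past 6 put in the outermost bars, and dotted lines mark 2-fold. Red lines mark the 5 genes: Tbx3 lies at -3.74 in the left panel, -1.56 in the middle panel and 2.19 in the right panel, and the other genes lie within the body of the bars.

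The length of the lists moved these ratios. The whole list was shorter by a log2 ratio of -1.27 in D-EPSCs and -1.65 in L-EPSCs over ESCs, and by -0.37 in L-EPSCs over D-EPSCs. Relative to its list, the ratio of D-EPSCs over ESCs was 0.75 for Klf2, 0.20 for Klf4, 0.02 for Klf5, -0.03 for Prdm14 and -2.47 for Tbx3. For L-EPSCs over ESCs it was 0.69, 0.75, -0.05 and -0.54 for Klf2, Klf4, Klf5 and Prdm14, and 0.09 for Tbx3. On this scale Klf2, Klf4 and Klf5 turned from lower to higher in D-EPSCs and Klf2, Klf4 and Tbx3 did so in L-EPSCs, and only Tbx3 in D-EPSCs was past 2-fold lower. Of all windows on this scale, 16.6% were past 2-fold lower and 18.6% higher in D-EPSCs over ESCs, 26.5% and 14.4% in L-EPSCs over ESCs, and 19.9% and 7.61% in L-EPSCs over D-EPSCs. As bases of the Tbx3 window per Mb of list, this was 750 in ESCs, 135 in D- and 798 in L-EPSCs.

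H3K4me1 was compared in the same way. It differed far less, and no window passed 2-fold in any comparison. Klf2 held 80.8 kb in ESCs, 67.2 kb in D- and 52.4 kb in L-EPSCs. Klf4 held 32.2, 31.4 and 32.2 kb, which was the same to within 1 kb in all states. Klf5 held 84.5, 72.5 and 66.1 kb and Prdm14 held 75.9, 66.2 and 54.2 kb.

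Tbx3, with 98.1 kb in ESCs, 64.4 kb in D- and 72.3 kb in L-EPSCs, had the most H3K4me1 of the 5 in ESCs and in L-EPSCs. Its log2 ratio of D-EPSCs over ESCs, -0.61, was the lowest of the 5, and 11.9% of 19609 windows were lower. That of L-EPSCs over ESCs was -0.44, beside -0.63 for Klf2, -0.49 for Prdm14, -0.35 for Klf5 and 0.00 for Klf4. In the window where H3K27ac was 13.4-fold lower in D-EPSCs, H3K4me1 was thus 1.52-fold lower.

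Over the genes themselves, H3K4me1 covered more bases in both EPSC states than in ESCs at 4 of the 5, which held for 31.4% of the 17075 genes with any H3K4me1 over their span. Over the Tbx3 gene it covered 5.29 kb in ESCs, 13.0 kb in D- and 11.7 kb in L-EPSCs, while upstream it covered 52.4, 30.1 and 35.2 kb and downstream 40.4, 21.3 and 25.4 kb. Over the Klf5 gene it covered 10.7, 13.1 and 13.4 kb, over Klf4 0, 3.32 and 3.62 kb and over Klf2 0, 1.56 and 1.25 kb. Prdm14 had 10.2, 8.62 and 9.05 kb within the gene and was the exception.

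Calls of H3K4me1 were rare in all windows as well. Past 2-fold lower were 0 of the 5 and 3.02% of all windows in D-EPSCs over ESCs, 0 and 6.09% in L-EPSCs over ESCs, and 0 and 1.62% in L-EPSCs over D-EPSCs. Past 2-fold higher were 0 of the 5 in each, against 7.53%, 8.68% and 3.03%.

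Promoter peaks, those within 1 kb of the first base of the gene, were present almost throughout. H3K27ac was called there at all 5 genes in every state, where (in the order ESC, D-EPSC, L-EPSC) 35.7%, 35.3% and 28.8% of all protein-coding genes had such a peak. H3K4me1 was called at 4 genes in ESCs, all but Klf4, and at 5 in both EPSC states, against 57.5%, 67.1% and 68.0% of all genes. The 5 promoters therefore did not separate the states by this count.

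How much of the promoter was covered did differ. Of the 2 kb around the start of Klf2, H3K27ac covered 2.00 kb in all 3 states, and of that around Klf4 2.00 kb in ESCs, 1.87 kb in D- and 2.00 kb in L-EPSCs. At Tbx3 it covered 2.00, 0.975 and 1.38 kb. At Prdm14 it covered 2.00, 0.261 and 1.75 kb, and at Klf5 0.884, 0.546 and 0.210 kb.

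The first base of the gene was acetylated for Klf2 and Klf4 in all 3 states. That of Prdm14 was acetylated in ESCs and L-EPSCs, that of Tbx3 in ESCs alone and that of Klf5 in no state. This made 4 of 5 genes in ESCs, 2 in D- and 3 in L-EPSCs, beside 21.5%, 24.4% and 17.4% of all genes. The GC-rich 200 bases printed above for Tbx3 end 1 base before its first base, and in both EPSC states a peak ended within them. H3K4me1 covered the first base of 1 gene, Prdm14, and only in the EPSC states. It covered the first base of 11.4% of all genes in ESCs, 26.2% in D- and 31.8% in L-EPSCs.

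H3K27ac peaks at the start were narrower in both EPSC states. Over all H3K27ac peaks the median width was also lower, at 892 bp in ESCs, 830 bp in D- and 744 bp in L-EPSCs. At Tbx3 the peak was 18.9 kb wide in ESCs and 0.990 kb wide in D-EPSCs, and in L-EPSCs a pair of peaks covered 7.35 kb together. Those of Klf4 were 5.07, 1.91 and 3.74 kb wide, and those of Klf5 4.89, 0.546 and 0.210 kb. Prdm14 had 3.69 kb in ESCs, 0.261 kb in D- and, in a pair of peaks, 2.41 kb in L-EPSCs. H3K4me1 peaks at the start went the other way at all genes but Klf5. At Tbx3 they were 8.31 kb wide in ESCs, 14.5 kb in D- and 15.4 kb in L-EPSCs, and at Klf5 4.49, 3.91 and 3.85 kb.

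Distal peaks, which met the start of no protein-coding gene, held most of the acetylation at each gene and state, except Klf2 in ESCs. Klf4 had 27.2 kb of distal H3K27ac in ESCs, 13.5 kb in D- and 13.5 kb in L-EPSCs. Klf5 had 63.3, 28.1 and 20.9 kb and Prdm14 56.9, 24.3 and 10.9 kb. Tbx3 had 61.6, 5.02 and 20.0 kb, so its low D-EPSC value was not set by the promoter peak.

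Klf2 had 45.3, 48.1 and 42.3 kb of distal H3K27ac, nearly the same in each state. That comparison is affected by the 40.3 kb ESC promoter peak, which in EPSCs was split into peaks that partly count as distal.

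The position of the acetylation was described by 3 zones, before, within and after the gene. In the Tbx3 window H3K27ac covered 34.8 kb upstream, 12.7 kb of the gene and 33.0 kb downstream in ESCs. The D-EPSC values were 1.58, 2.60 and 1.83 kb and those of L-EPSCs 14.5, 6.32 and 6.52 kb. In D-EPSCs every zone was low, and in L-EPSCs the upstream zone held the most.

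The 5 D-EPSC peaks of Tbx3 were few enough to give in full. They spanned -38.8 to -38.2, -1.0 to -0.0, 8.4 to 11.0, 36.1 to 36.4 and 39.3 to 40.8 kb from the start, and were 0.589, 0.990, 2.60, 0.339 and 1.49 kb wide. Of their bases, 97.0% lay within ESC peaks and 77.8% were also acetylated in L-EPSCs. The L-EPSC peaks of 4.49, 4.08 and 3.09 kb upstream of the gene had D-EPSC counterparts only at the first, over the promoter.

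**Figure D3:**
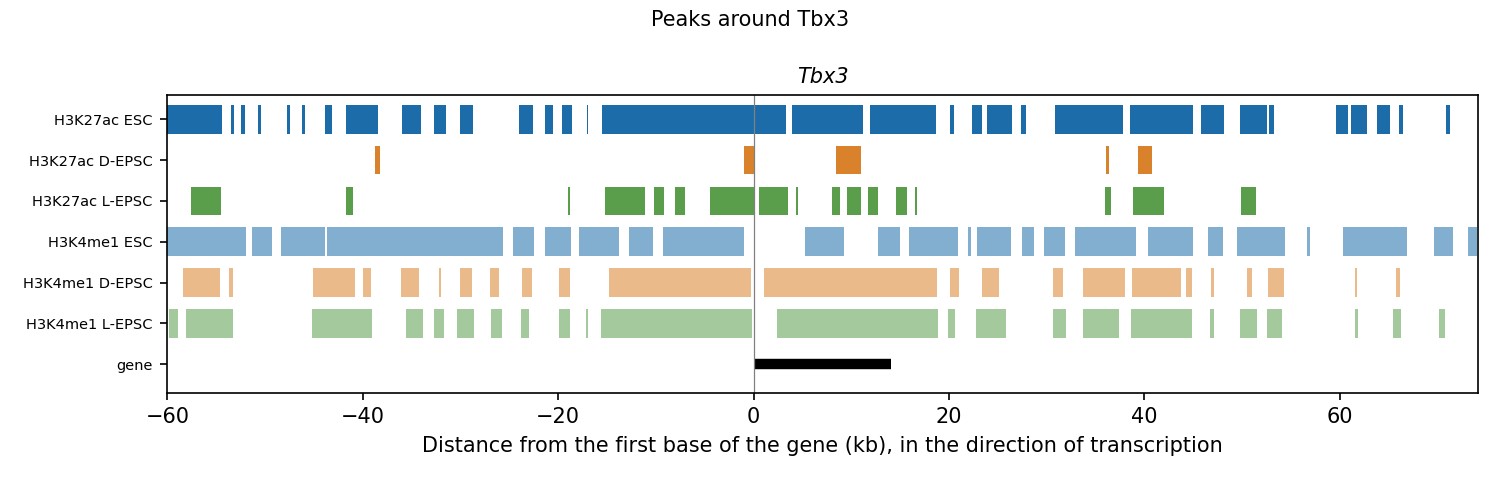
Boxes are peaks of each mark and state, placed by distance in kb from the first base of Tbx3 in the direction of transcription, and the black bar is the gene. The H3K27ac rows hold 32 peaks in ESCs, 5 in D- and 17 in L-EPSCs, above H3K4me1 rows with 24, 23 and 23 peaks.

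The other 4 genes had their widest acetylated stretch on the downstream side or over the gene. Klf4 had 25.2 kb downstream and 3.83 kb upstream in ESCs, with 13.5 kb downstream in both EPSC states. Most of this was 1 region 49.3 to 81.8 kb past the start, at chr4:55463534-55496060, which runs past the window. In its full width of 32.5 kb H3K27ac covered 32.5 kb in ESCs, 21.8 kb in D- and 16.2 kb in L-EPSCs, and H3K4me1 covered 30.3, 29.6 and 28.0 kb.

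Klf5 had 46.9 kb of H3K27ac downstream in ESCs, 26.6 kb in D- and 19.7 kb in L-EPSCs. Upstream it had 12.1, 1.06 and 0.243 kb, so the upstream side was nearly free of acetylation in both EPSC states. The region 25.0 to 59.7 kb past the start, at chr14:99722920-99757632, held 34.6 kb in ESCs, 25.6 kb in D- and 19.2 kb in L-EPSCs.

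Prdm14 had 40.6 kb downstream in ESCs, 21.3 kb in D- and 9.89 kb in L-EPSCs. Within the gene it had 8.38, 0 and 0.754 kb. Its widest region, at chr1:13060330-13076605 outside protein-coding genes, begins 40.6 kb past the start and held 14.9, 12.0 and 6.04 kb.

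Klf2 was acetylated on both sides of the gene. Downstream it had 45.9 kb in ESCs, 37.2 kb in D- and 27.9 kb in L-EPSCs. Upstream it had 47.3 kb in ESCs and 19.0 kb in L-EPSCs, with D-EPSCs between them. All 2.62 kb of the gene were acetylated in every state.

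**Figure D4:**
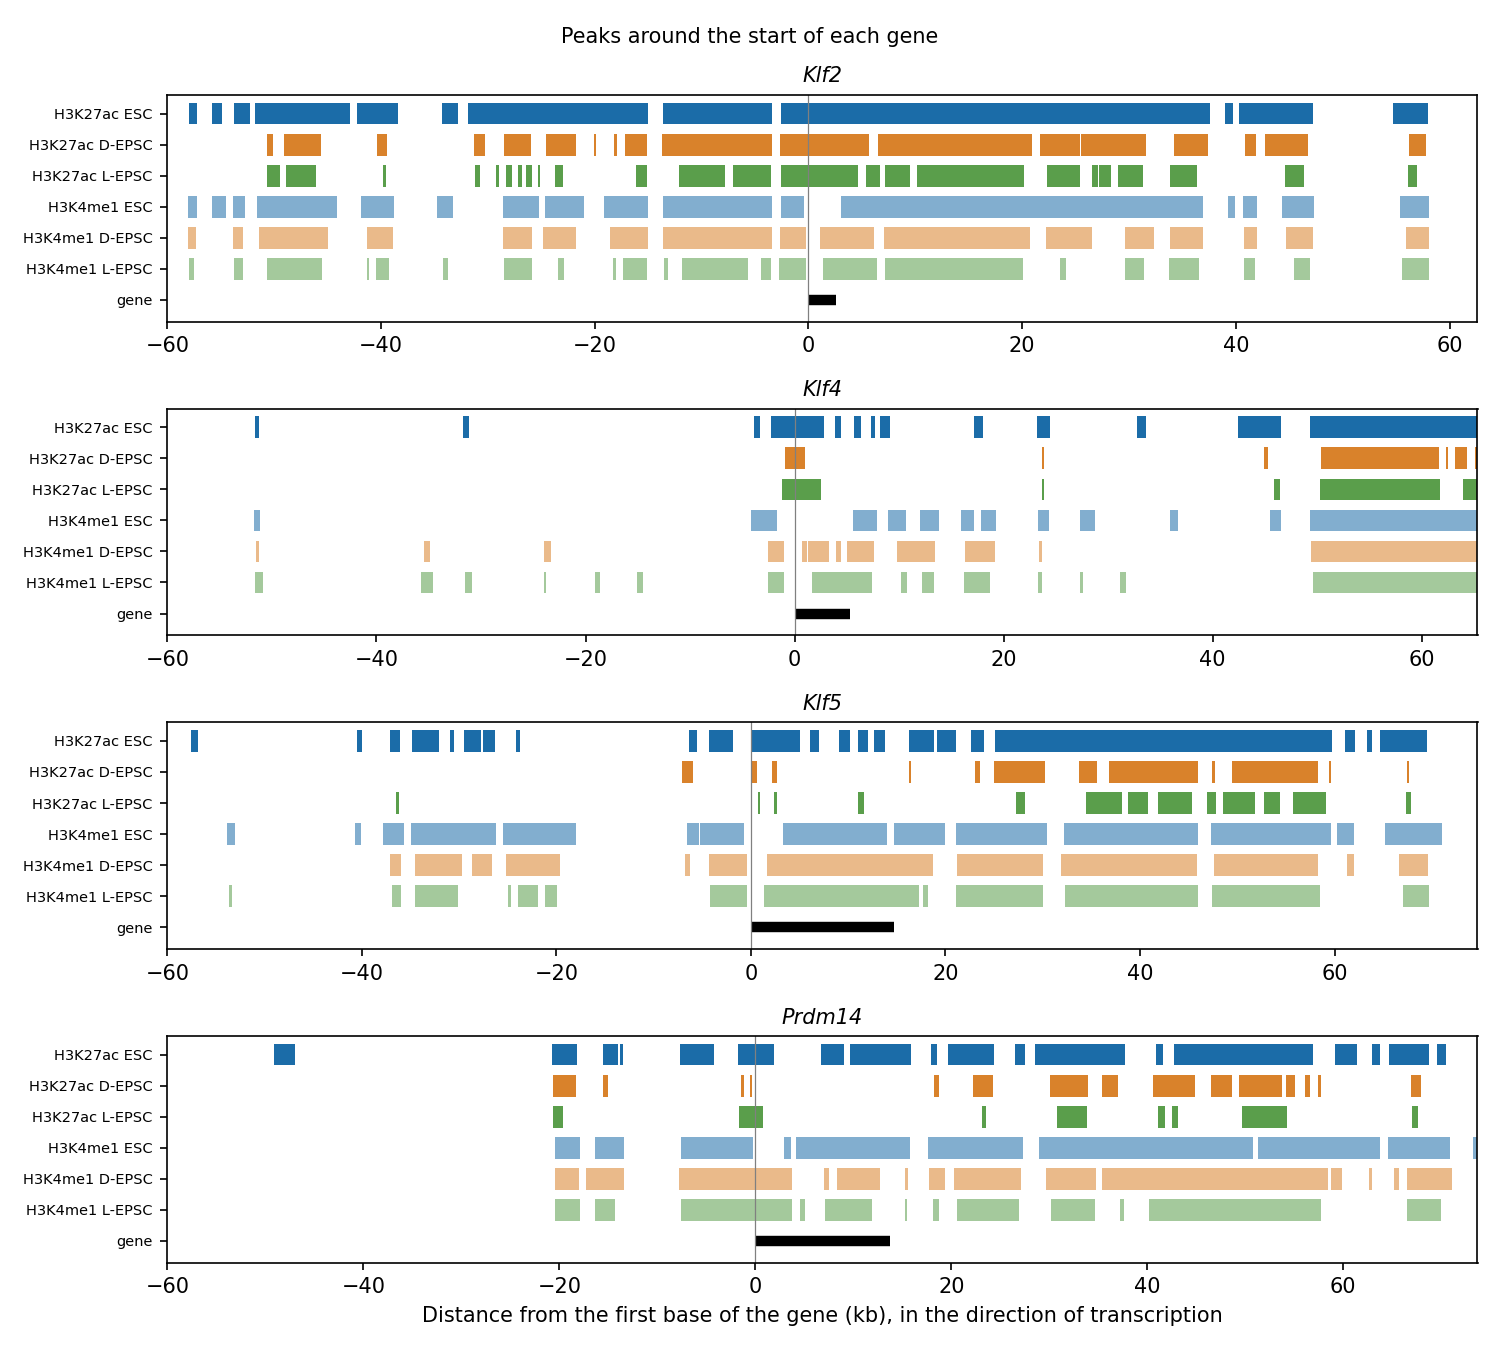
Boxes are peaks of each mark and state, placed by distance in kb from the first base of Klf2, Klf4, Klf5 and Prdm14 in the direction of transcription, and black bars are the genes. The downstream H3K27ac stretches, from 49.3 kb at Klf4, 25.0 kb at Klf5 and 40.6 kb at Prdm14, appear in all 3 states and are narrower in D-EPSCs and L-EPSCs.

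Distal H3K27ac peaks of the 3 states were next joined into regions and classed by the states with any peak in them, promoter peaks included. A distal EPSC peak under a wide ESC promoter peak was thus classed as shared with ESCs by construction. The genome's regions were classed in the same way. There were 103 such regions in the 5 windows, of which 61 (59.2%) were acetylated in ESCs only and 27 (26.2%) in all 3 states, where the genome had 57.2% and 17.8% of 63190 regions. Another 5 (4.85%) were shared by ESCs and D-EPSCs and 9 (8.74%) by ESCs and L-EPSCs, beside 10.3% and 4.70% of the genome's regions. No region was found in both EPSC states without ESCs or in L-EPSCs alone, and 1 was found in D-EPSCs alone, a peak of 0.220 kb 57.4 kb past the Prdm14 start. Of the genome's regions, 1.61% were in both EPSC states, 2.88% in L-EPSCs alone and 5.49% in D-EPSCs alone. Without Klf2, 18.4% of 87 regions were acetylated in all 3 states, near the genome's share.

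Tbx3 had 7 of the 9 regions shared by ESCs and L-EPSCs and Klf5 the other 2. Of these, chr5:120105460-120109541, chr5:120110524-120111504 and chr5:120112663-120113629 lay inside the 18.9 kb ESC promoter peak of Tbx3. Their sharing was therefore set by construction. The same held for Klf2 regions under ESC promoter peaks, such as chr8:74848353-74863873, so the counts kept below are raised by them. Of its 34 regions, Tbx3 kept 4 in D-EPSCs (11.8%, 95% Wilson interval 4.67 to 26.6), with 11 in L-EPSCs (32.4%, 19.1 to 49.2). Klf2 kept 11 of 16 in both, and Klf4 3 of 12 in both. Klf5 kept 6 of 23 in D- and 5 in L-EPSCs, and Prdm14 8 of 17 and 6. The intervals cover counting error only and treat regions of 1 window as independent.

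Over the 5 windows, 32 of 102 ESC regions (31.4%, 23.2 to 40.9) were kept in D-EPSCs, with 36 (35.3%, 26.7 to 44.9) in L-EPSCs. Some of these regions held no distal ESC peak and lay under an ESC promoter peak. They counted as kept by construction in the EPSC state whose distal peak formed them, which raises both shares. Over the genome 31.2% of 56884 regions were kept in D- and 25.0% in L-EPSCs. The D-EPSC share was near that of the genome. Without Klf2, which was left out after its values were seen, 21 of 86 regions (24.4%, 16.6 to 34.5) were kept in D-EPSCs, with 25 (29.1%, 20.5 to 39.4) in L-EPSCs, and the L-EPSC interval then held the genome's share.

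Among named regions, the widest Tbx3 region of ESCs only was 2.51 kb wide, 23.9 kb past the start at chr5:120144625-120147132. H3K4me1 covered 2.40 kb of it in ESCs, 1.16 kb in D- and 1.86 kb in L-EPSCs. The widest shared by all states was 7.26 kb wide, at chr5:120124617-120131879 over exons and introns of Tbx3. H3K27ac covered 7.26, 2.60 and 2.45 kb of it in ESCs, D-EPSCs and L-EPSCs, and H3K4me1 covered 3.96, 7.26 and 7.26 kb.

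The widest region of ESCs and L-EPSCs without D-EPSCs was 7.02 kb wide, at chr5:120132401-120139421 over the end of Tbx3 and beyond. H3K27ac covered 6.80 kb in ESCs and 2.28 kb in L-EPSCs. H3K4me1 covered 5.11 kb in ESCs and all 7.02 kb in both EPSC states. Here too H3K4me1 was called where D-EPSCs had no H3K27ac.

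The widest ESC-only region of the 5 windows, 6.17 kb at chr1:13101371-13107536, lay over exons and introns of Prdm14 and beyond its end. H3K4me1 covered 6.13 kb of it in ESCs, 3.31 kb in D- and 2.44 kb in L-EPSCs. The widest of Klf5 was 2.83 kb at chr14:99663012-99665844, upstream of the gene, with H3K4me1 over 2.83, 2.48 and 2.39 kb. Those of Klf2 (1495 bp at chr8:74808612-74810106) and Klf4 (964 bp at chr4:55536219-55537182) were narrower and had no H3K4me1 in D-EPSCs.

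Of the 61 ESC-only regions, H3K4me1 peaks met 55 in ESCs, 39 in D- and 37 in L-EPSCs, or 90.2%, 63.9% and 60.7%. Over the genome the shares were 82.3%, 63.2% and 59.8%. At Tbx3 they met 23, 13 and 14 of 23 regions, and at Prdm14 8, 8 and 5 of 9.

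The bases acetylated in ESCs were then followed one by one into each EPSC state, which does not depend on how peaks are joined. Klf2 kept 69.6% of them in D- and 51.7% in L-EPSCs. Klf4 kept 47.7% and 53.6%, Klf5 40.8% and 30.9%, and Prdm14 37.5% and 21.3%. Tbx3 kept 7.24% in D- and 33.5% in L-EPSCs. Over the genome 32.4% and 26.7% were kept, so Tbx3 in D-EPSCs and Prdm14 in L-EPSCs were the values below the genome.

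Of the bases no longer acetylated, many were under H3K4me1 in the same EPSC state, whether or not ESCs had H3K4me1 there. At Tbx3 this held for 68.2% of 74.6 kb in D-EPSCs and 68.0% of 53.5 kb in L-EPSCs. At Klf5 it held for 67.0% and 62.8%, at Prdm14 for 67.2% and 61.3% and at Klf4 for 52.6% and 49.5%. Klf2 was lowest, at 32.6% and 28.4%. The 5 windows together gave 61.2% and 55.2%, beside 60.9% and 57.4% over the genome.

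Bases under H3K4me1 in ESCs were kept more often than acetylated ones. Tbx3 kept 52.7% in D- and 61.7% in L-EPSCs, the lowest of the 5 in each. The others kept from 74.1% (Klf4) to 82.0% (Klf5) in D- and from 62.4% (Klf2) to 74.6% (Klf5) in L-EPSCs. Over the genome 67.7% and 60.4% were kept.

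**Figure D5:**
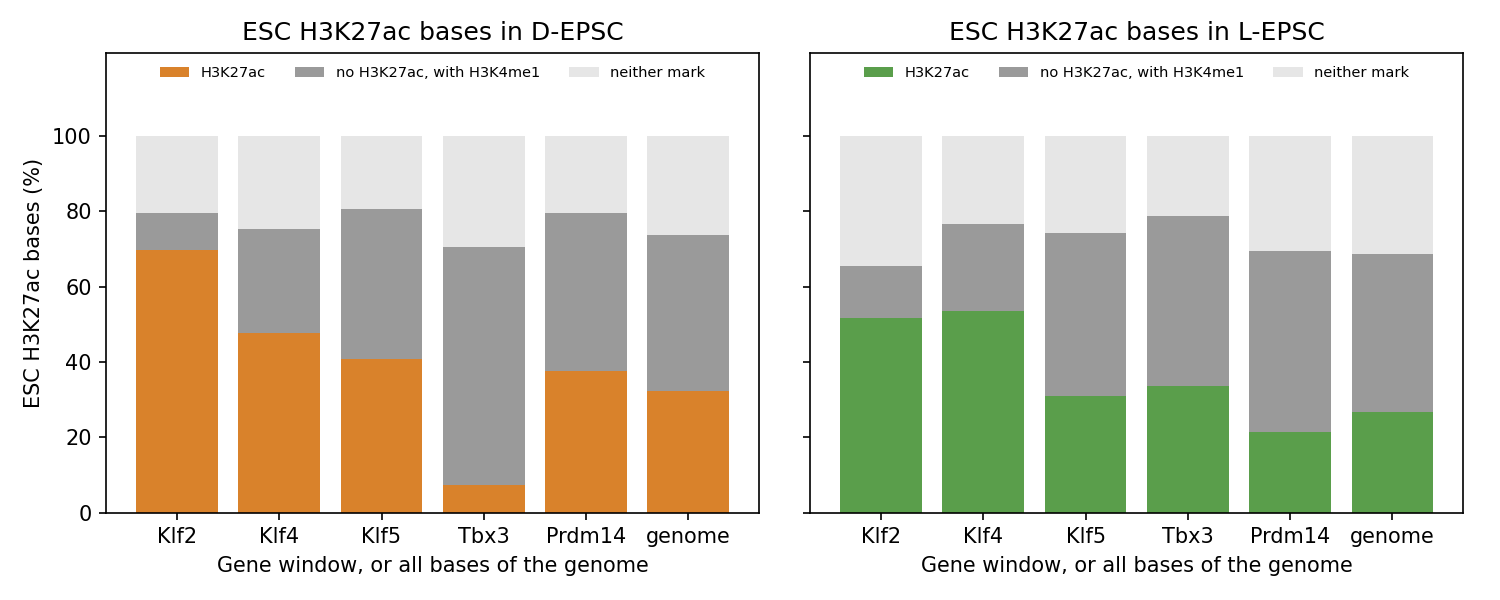
Each bar divides the bases under ESC H3K27ac peaks (100%) into those acetylated in the EPSC state, those without H3K27ac but under H3K4me1 there, and those under neither mark, for 5 gene windows and the genome. The acetylated share of Tbx3 is 7.24% in D- and 33.5% in L-EPSCs, and 32.4% and 26.7% of the genome's ESC bases were acetylated there.

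EPSC acetylation around these genes lay almost wholly on ESC acetylation. Only 2.08% of the D-EPSC bases and 0.673% of the L-EPSC bases in the 5 windows were outside ESC peaks, where the genome had 21.6% and 16.4%. For D-EPSCs the share ran from 0 at Klf4 to 7.57% at Prdm14, and for L-EPSCs from 0 at Klf4 to 3.39% at Prdm14. The windows were among those with the most ESC peaks to fall on, since ESC peaks covered from 25.7% of the Klf4 window to 78.1% of the Klf2 window.

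D-EPSC and L-EPSC acetylation overlapped to different degrees. At Klf2, 70.6% of the D-EPSC bases and 95.2% of the L-EPSC bases were shared between both states, and at Klf4 91.0% and 81.0%. At Klf5 it was 56.2% and 76.4%, and at Prdm14 44.5% and 81.9%. At Tbx3 the shared 4.68 kb were 77.8% of the D-EPSC bases and 17.1% of the L-EPSC bases. Over the genome the shares were 55.2% and 71.5%.

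Both marks together describe active enhancers, so the share of distal H3K4me1 bases that also carried H3K27ac was measured. At Klf2 it was 97.8% in ESCs, 82.1% in D- and 74.0% in L-EPSCs. At Klf4 it was 66.1%, 41.5% and 44.4%, at Klf5 70.3%, 39.2% and 31.8%, and at Prdm14 72.5%, 43.6% and 25.1%. At Tbx3 it was 62.6%, 8.87% and 26.5%.

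The 5 windows together had 73.9% in ESCs, 43.6% in D- and 39.6% in L-EPSCs, and the genome 38.6%, 19.2% and 17.2%. Each window was above the genome in each state, except Tbx3 in D-EPSCs. In that window and state, 49.9 kb of distal H3K4me1 was called and 4.43 kb of it was acetylated. The genome's share is not matched for the amount of H3K27ac. From 87.3% (Klf4 in ESCs) to 99.9% (Klf2 in D-EPSCs) of all windows had less H3K27ac than these, beside 70.2% for Tbx3 in D-EPSCs.

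Other genes of the naive network were set beside them, from a list of 15. In D-EPSCs 8 of 15 tested windows were past 2-fold lower in H3K27ac than in ESCs, beside 62.6% of all windows. Another 1 was higher (Nr0b1, with 0.586 kb in ESCs and 1.49 kb in D-EPSCs), beside 4.41% of all windows. The median log2 ratio was -1.12, beside -1.31 over all windows. In L-EPSCs 7 of 14 were lower and 0 higher, beside 81.1% and 1.69% of all windows, with a median of -1.25 beside -1.91. Nr5a2, a nuclear receptor that can activate Pou5f1, had 39.8 kb in ESCs, 6.54 kb in D- and 8.72 kb in L-EPSCs. Stat3, which relays LIF signals, had 21.9, 5.58 and 5.13 kb. Among the 14 with at least 1000 bases in both states, the highest D-EPSC ratios were those of Gbx2, with 8.68, 8.61 and 5.76 kb, and of Tfap2c, an AP-2 factor, with 37.9, 40.6 and 27.7 kb. No gene of the list passed 2-fold in H3K4me1 in any comparison.

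Genes of the formative and primed states that follow the naive one numbered 12, of which 10 could be tested for H3K27ac. In D-EPSCs 2 were past 2-fold lower than in ESCs (Pou3f1 and Etv4) and 0 higher, beside 62.6% and 4.41% of all windows. Their median was -0.42, beside -1.31 over all windows. In L-EPSCs 7 were lower, beside 81.1% of all windows, with a median of -1.57 beside -1.91. Lef1, a Wnt effector, had 7.92 kb in ESCs, 11.5 kb in D- and 2.49 kb in L-EPSCs. Etv4, an ETS factor induced by FGF signalling, had 11.2, 4.61 and 0.345 kb. The D-EPSC median of this list was above that of the 5 naive genes, and the L-EPSC medians of both lists were nearly equal.

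The gene families of the members gave a further comparison. Among 14 other Klf genes, 10 of 13 tested were past 2-fold lower in D-EPSCs than in ESCs, beside 62.6% of all windows. Another 1 was higher (Klf14, with 0 kb in ESCs and 1.20 kb in D-EPSCs), beside 4.41% of all windows. The D-EPSC median was -1.78, beside -1.31 over all windows. In L-EPSCs 9 of 12 were lower, beside 81.1% of all windows, with a median of -1.88 beside -1.91. Klf9 and Klf6 had the highest D-EPSC ratios among the 12 with at least 1000 bases in both states, with 70.2 kb in ESCs, 54.0 kb in D- and 45.1 kb in L-EPSCs for Klf9, and Klf15 had the lowest D-EPSC ratio, with 47.9, 8.88 and 11.4 kb. Klf2, at -0.52 and -0.95, was above both family medians, and so was each other Klf member.

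Among 16 other T-box genes, 10 could be tested against ESCs. In D-EPSCs 7 were past 2-fold lower and 0 higher, beside 62.6% and 4.41% of all windows, with a median of -2.03 beside -1.31. In L-EPSCs 8 were lower, beside 81.1% of all windows, with a median of -1.80 beside -1.91. Tbx2 and Tbx4 had equal values, 2.24 kb in ESCs and 0 kb in both EPSC states, so their calls may rest on the same peaks. Mga, with 53.6 kb in ESCs, 24.2 kb in D- and 17.8 kb in L-EPSCs, and Eomes, with 11.9, 6.47 and 2.94 kb, did not share the order of Tbx3. Tbx6 had 15.8, 5.49 and 5.59 kb, with the EPSC states nearly equal. Of 5 T-box genes tested between the EPSC states, 1 was past 2-fold lower in L-EPSCs (Eomes) and 1 higher (Tbx20), beside 30.9% and 4.32% of all windows. Tbx20, with 5.62 kb in ESCs, 0.632 kb in D- and 3.12 kb in L-EPSCs, had the order of Tbx3 at lower levels. Klf14, Prdm4, Nr0b1 and Tbx20 were named after their values were seen, being single members past 2-fold. So were Tbx2 and Tbx4, for their equal values.

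Among 14 other Prdm genes, 7 of 13 tested were past 2-fold lower in D-EPSCs than in ESCs, beside 62.6% of all windows. Another 1 was higher (Prdm4, with 0.481 kb in ESCs and 1.43 kb in D-EPSCs), beside 4.41% of all windows. The D-EPSC median was -1.58, beside -1.31 over all windows. In L-EPSCs 8 of 12 were lower, beside 81.1% of all windows, with a median of -1.73 beside -1.91. Prdm12 had 20.4 kb in ESCs, 2.02 kb in D- and 0.844 kb in L-EPSCs. Prdm14 lay above the family median in D-EPSCs, at -1.30, and below it in L-EPSCs, at -2.18.

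The genes whose windows were most like each member were found by Euclidean distance over 6 values, the log2 of covered kb plus 1 in each list. For Tbx3 they were Tha1 (distance 0.537), Birc5 (0.631) and Cldn27 (0.664), whose windows overlap on chromosome 11. Tha1 had 81.8 kb of H3K27ac in ESCs, 6.49 kb in D- and 20.0 kb in L-EPSCs, beside 100 kb of H3K4me1 in ESCs. Tbx3 had no nearer neighbour than this stretch.

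For Klf5 they were Tmub2 (0.189), Ssbp4 (0.206) and Gpr107 (0.207), and for Prdm14 Pigb (0.210), Tom1l2 (0.254) and Yap1 (0.257). For Klf4 they were Mrpl39 (0.287), Pkd2 and Fhl4 (both 0.336). For Klf2 they were the histone genes Hist1h4h (0.619), Hist1h2af (0.625) and Hist1h3g (0.626), whose windows overlap on chromosome 13. Klf2 and Tbx3 were thus farther from their nearest genes than the other members were.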

How the data were processed

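ChIP-seq of H3K27ac and H3K4me1 was performed by the authors in ESCs, D-EPSCs and L-EPSCs. Per the submitters' processing notes and the study's methods, reads were trimmed with Trim Galore 0.6.3, aligned to mm9 with Bowtie2 2.3.5 and handled with SAMtools 1.10, and broad peaks were called with MACS against input. The deposited files hold peak start and end positions, a unit of position and not of signal, in 1 list per state and mark. The threshold of the calls and whether samples were pooled are not given in the sources used here. Depth is therefore unknown, and a longer list can reflect a deeper or cleaner library.

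Covered bases were counted per gene window (GENCODE M1 span and 60 kb on each side) with Python 3.11.15 and numpy 2.4.6. All 22350 protein-coding genes on 20 chromosomes served as background. A window with at least 1000 covered bases in either list was tested and called at 2-fold. Promoter peaks met the gene's 5′ end widened by 1 kb, and distal peaks met no such interval. Shares of regions have 95% Wilson intervals (scipy 1.17.1). Sequences were read from NCBIM37 with pysam 0.24.0, and no peak passed a chromosome end. Figures were drawn with matplotlib 3.10.9. The code was tested on simulated data. Coordinates are 1-based.

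The 5 genes and all gene lists were chosen with earlier results of these data known. From each other list, the genes with the 2 lowest and 2 highest H3K27ac ratios of D-EPSCs over ESCs could be named, and for each member the 3 nearest windows and the widest distal region of each class. Sequences were the 200 bases before the start and the middle of the widest distal ESC stretch, of which 1 is not reported here. The stretch acetylated in all states, the windows of at least 50 kb in ESCs, the first base, windows around the start site alone and the windows without Klf2 were added after seeing the data.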

Additional observations from a re-analysis of the deposited data

How the results depend on the processing

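No paired analysis was possible because the deposited lists do not separate replicates, and for the same reason no replicate could be left out. Peak lists carry no depth, so a lower covered length cannot be told apart from a shallower library. Of 252 counts and shares under alternatives, 226 moved by at most 1.5 times or stayed within their interval. Of 420 ratios of single genes, 356 kept their call (lower, higher or neither) at the fold of the setting. They also kept their direction wherever neither ratio rounded to 0.00. The settings at 1.5-fold and 3-fold left the ratios as they were and moved only the limit of the call. Tbx3 stayed past 2-fold in H3K27ac in all 14 alternatives, between -3.90 and -2.47 (log2) for D-EPSCs over ESCs and between 1.46 and 2.74 for L-EPSCs over D-EPSCs.

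The number of the 5 genes past 2-fold lower in H3K27ac in D-EPSCs than in ESCs was 4. It was 1 with bases as a share of the list, with lists cut to equal covered bases, with numbers of peaks and at 3-fold, and in each case that gene was Tbx3. For L-EPSCs against ESCs, 3 became 0 with bases as a share of the list, 1 with lists of equal covered bases, and 5 with 100 kb flanks or at 1.5-fold. By number of peaks 1 gene was past 2-fold higher there, Klf2, with a log2 ratio of 1.00. As a share of the list, the ratios of Klf4 (0.20) and Klf5 (0.02) in D-EPSCs and of Tbx3 (0.09) in L-EPSCs over ESCs reversed, and those of Klf2, which had not passed 2-fold, turned positive in D-EPSCs (0.75) and L-EPSCs (0.69), as did that of Klf4 in L-EPSCs (0.75). For L-EPSCs lower than D-EPSCs, 0 became 1 with distal peaks only and at 1.5-fold (Prdm14 in both), and for H3K4me1 0 became 1 at 1.5-fold in D-EPSCs (Tbx3) and in L-EPSCs (Klf2) against ESCs.

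Promoter H3K27ac in 5 genes became 2 in ESCs and 2 in D-EPSCs with lists of equal covered bases. At the first base it became 2 in D-EPSCs and 3 in L-EPSCs. Promoter H3K4me1 became 2 in ESCs with a narrower promoter of 0.5 kb on each side, and at the first base 0 in ESCs and 1 in each EPSC state. With lists of equal covered bases, distal ESC regions kept were 68.2% (D-EPSC) and 95.5% (L-EPSC), and with lists of equal length they were 43.1% and 55.2%, and 50.2% of distal ESC H3K4me1 bases were acetylated with equal covered bases. These alternatives keep fewer, wider ESC peaks by construction.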
